A study of Rattus norvegicus with 6 samples.

Results

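Afatinib rash skin was compared with untreated rat skin in 4 of the 6 libraries of the series, 2 per group, chosen by the treatment given in the sample labels. The remaining 2 libraries come from gefitinib rash skin. They were used for the choice of genes tested, the scaling, the common estimate of spread and for values set beside those of afatinib.

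All libraries were made from back skin of Sprague-Dawley rats, an outbred albino strain. The untreated rats received no drug. One drug group had afatinib, which blocks the kinase of the epidermal growth factor receptor (EGFR) covalently, at an oral daily dose of 30 mg/kg. The other had the reversible inhibitor gefitinib at an oral daily dose of 80 mg/kg. In both drug groups dosing stopped when a rash appeared. The labels give no age, sex, vehicle, number of dosing days or place of the sample relative to the rash, so dosing time cannot be told apart from drug. They do not say whether the 2 libraries of a group are separate rats. The p-values measure the spread between these libraries, which need not be that between rats. It was far beyond counting error, at a chi-square per degree of freedom of 107.2 for the untreated, 249.8 for the afatinib and 83.44 for the gefitinib pair.

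EGFR is a receptor tyrosine kinase of basal keratinocytes and of the outer root sheath of the hair follicle. Ligands such as amphiregulin and transforming growth factor alpha activate it, and its signal runs through ERK to growth, survival and delayed differentiation. Rash with pustules around follicles is a known side effect of drugs that block it. Skin also holds the hair follicle cycle, in which a growing follicle contains dividing matrix cells, an inner root sheath and a keratinised shaft. In rodents a sheet of striated muscle, the panniculus carnosus, lies under the dermis.

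Library totals ran from 17206456 to 22086673 counts over the 6 libraries. The epidermal keratins Krt5, Krt14, Krt1 and Krt10 were counted in every library. This shows only that each library held some epidermis, a check that could hardly fail. Their amounts were unlike: Krt5 ran from 4318 counts in untreated replicate 2 to 45781 in afatinib replicate 2. Skeletal muscle genes took 23.3% and 21.6% of the counts in the untreated libraries, 18.2% in afatinib replicate 1 and 6.41% in afatinib replicate 2. Afatinib replicate 1 stood nearer to untreated skin than its partner. Across genes, its log2 level correlated with the untreated libraries at 0.935 and 0.939, against 0.853 and 0.864 for afatinib replicate 2. The afatinib pair correlated at 0.925, below the untreated pair at 0.968 and below afatinib replicate 2 with gefitinib replicate 1 at 0.965. These are descriptions across genes, which are not independent replicates and share library depth. Counts of calls in each gene list below are therefore also given with single libraries left out.

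**Figure D1:**
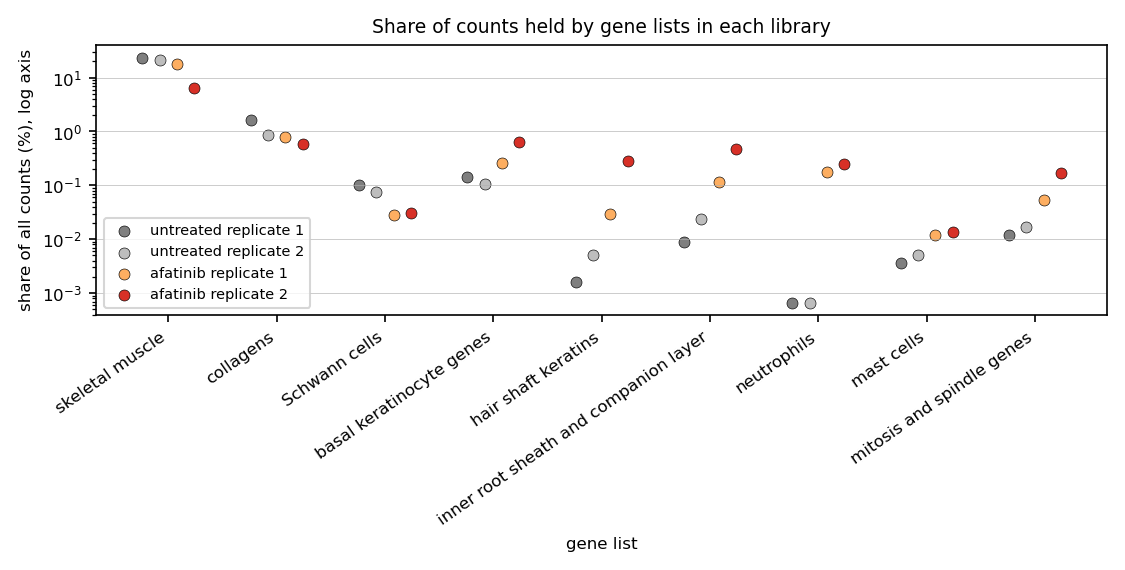
Share of all counts in percent (log axis) held by 9 gene lists in the 2 untreated and 2 afatinib libraries, 1 point per library. Neutrophil genes sat at 0.000664% and 0.000661% in untreated skin and at 0.176% and 0.245% in afatinib skin, while skeletal muscle genes took 18.2% and 6.41% in the afatinib pair. Most of the neutrophil share in afatinib skin came from S100a8 and S100a9, which keratinocytes also make. They read 993 and 949 CPM and 916 and 713 CPM there, of 1965 and 1762 CPM for the whole list.

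Levels are CPM, read counts per library size after TMM scaling, and a gene was called where the edgeR quasi-likelihood test gave an adjusted p under 0.05 over all 16398 genes tested. In afatinib rash skin 652 genes were called, 3.98% of those tested. Higher calls numbered 591 (3.6%) and lower calls 61 (0.372%), and every one changed by at least 2-fold in the fit. Rises of at least 8-fold numbered 236 and falls of at least 8-fold 10. In all 652 the 2 groups did not overlap, which was also true of many uncalled genes: both afatinib libraries lay above both untreated ones for 31.5% of genes and below for 21.8%. The median log2 fold change of all genes tested was 0.09.

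The number of calls moved with each library left out. Such a fit leaves 1 library in a group, and that group then adds nothing to the estimate of spread. Without afatinib replicate 1, the difference within the afatinib pair no longer enters that estimate. Whether the counts moved with the library itself or with the estimate of spread was not tested. With untreated replicate 2 left out, edgeR called 0 genes, although 2218 had an unadjusted p under 0.05. With untreated replicate 1 left out, it called 1 gene. Leaving out afatinib replicate 1 gave 3653 calls, among them all 652. Leaving out afatinib replicate 2 gave 134, of which 129 were among the 652. Leaving out gefitinib replicate 1 or 2 also lost most of the 652. These libraries enter the choice of genes tested, the scaling and the estimate of spread. Without replicate 1 and without replicate 2, 17086 and 17131 genes were tested. The median log2 fold change of all genes was then 0.014 and 0.016. The direction of all 652 was the same under every alternative in which they were tested. Since their groups did not overlap, leaving out a library could hardly turn a direction, so this adds no support to the calls. Limma-voom called 34 genes, all among the 652, and DESeq2 called 1992, which include all 652. The number called in each gene list below moved with these totals. A list's count under an alternative is therefore to be read beside the total for that alternative, not as a property of the list.

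**Figure D2:**
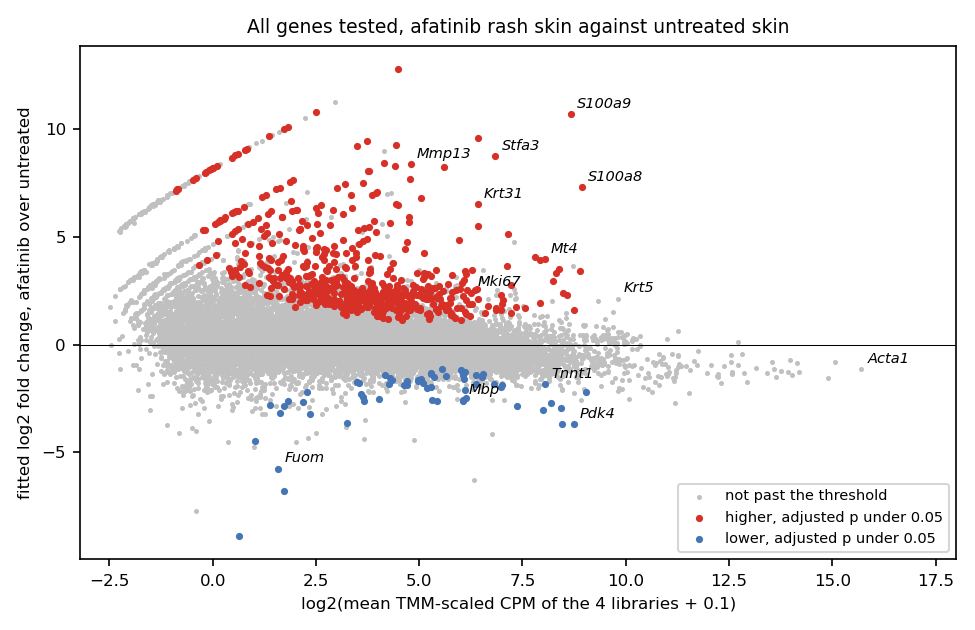
Fitted log2 fold change of afatinib over untreated skin against log2 of the mean TMM-scaled CPM of the 4 libraries plus 0.1, 1 point per gene tested. The 591 called rises (red) spread up to S100a9 and beyond it to genes at 0 in untreated skin, whose fitted values depend on the prior count, while the 61 called falls (blue) include Pdk4 and Mbp.

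Among the genes named for the largest called rises, S100a9, which with S100a8 forms the antimicrobial protein calprotectin, lies on chromosome 2 from 190097554 to 190100276 in the coordinates of the file, which names no genome build. It read 0.692 and 0.291 CPM in untreated skin and 916 and 713 CPM in afatinib skin. Its log2 fold change was 10.71 ± 0.71 (SE, edgeR adjusted p = 0.00354). Mmp13, a collagenase, lies on chromosome 8 from 5522739 to 5533018. It read 0.138 and 0.175 CPM untreated against 43.0 and 67.1 CPM, a log2 fold change of 8.39 ± 0.57 (edgeR adjusted p = 0.00354). Both genes lay far apart between the groups and close within them.

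Several of the leading genes had no count in untreated skin, so only a lower bound can be given, against a floor of 3 counts per library. The bound sets the mean of both afatinib libraries over that floor, so it holds for the mean and not for each library. Sprr1b, a small proline-rich protein of the cornified envelope, was at 0 in both untreated libraries and at 9.16 and 13.2 CPM with afatinib, at least 58.6-fold higher. Tmprss11g, a membrane serine protease, was at least 33.4-fold higher and Il19, a cytokine of the interleukin 10 family, at least 14.8-fold. Calca, which encodes calcitonin and the neuropeptide CGRP, was at least 26.1-fold higher but differed between the afatinib libraries, at 1.17 and 8.79 CPM. Lpo, a peroxidase of secretions, was at least 14.1-fold higher and Bhlha9, a transcription factor, at least 9.44-fold. These genes also differed between the afatinib libraries, at 1.23 and 4.16 CPM for Lpo and 0.715 and 2.89 CPM for Bhlha9.

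Mmp9, Cxcl2 and Wfdc18 had 1 to 3 counts in untreated skin. The summed count ratio of Mmp9, the gelatinase of neutrophil granules, was 717 (95% exact interval 198 to 5923, counting error only), with 35.1 and 51.4 CPM in afatinib skin. Cxcl2, a neutrophil chemokine, rose to 13.5 and 31.0 CPM, a ratio of 775 (139 to 30640). Wfdc18 rose to 38.3 and 32.1 CPM, a ratio of 363 (124 to 1762). Stfa3 and Stfa2l1, stefin A cysteine protease inhibitors, had log2 fold changes of 8.74 ± 0.71 and 8.30 ± 0.55. Stefin A genes are a family of near copies, so the split of reads among them is uncertain.

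**Figure D3:**
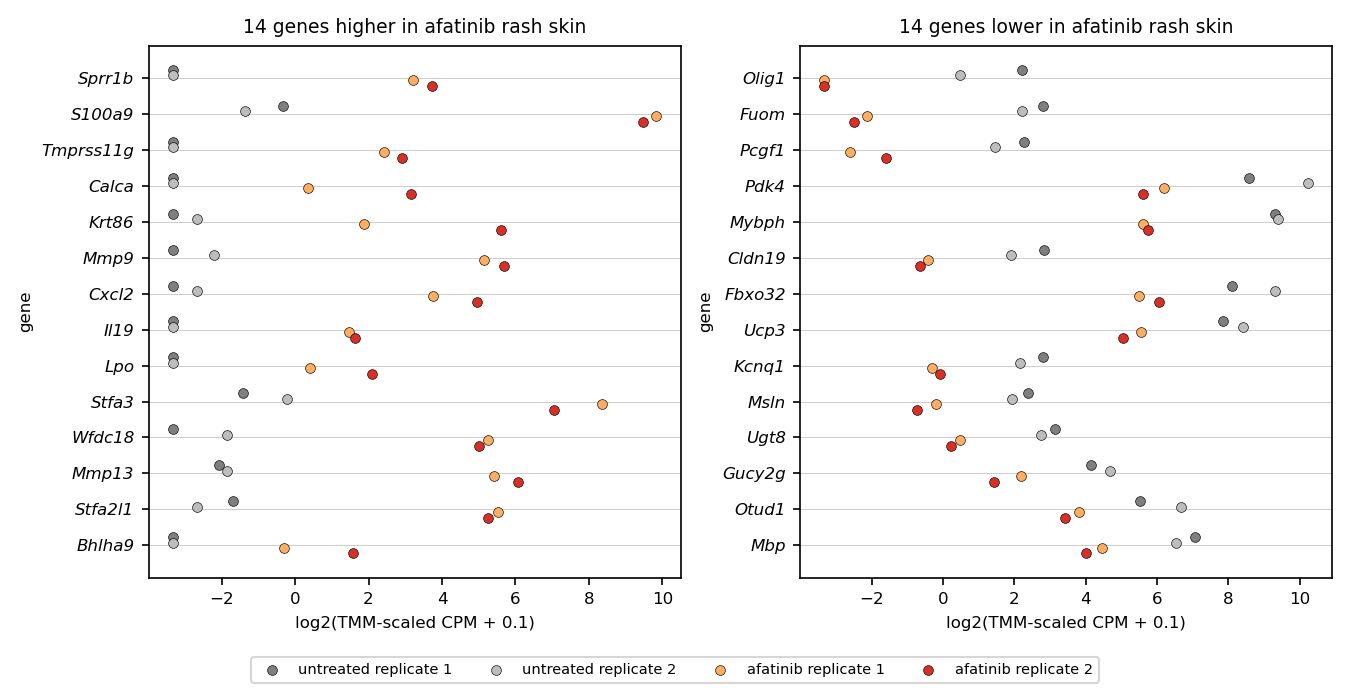
Level of 14 named genes per direction in each of the 4 libraries, as log2 of TMM-scaled CPM plus 0.1, 1 point per library. Afatinib points lie to the right of all untreated points on the left panel and to the left of them on the right panel. The rule that chose these genes required this. Krt86 and Calca show the widest gaps between the afatinib libraries.

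The genes with the largest called falls include genes of myelin, of fuel use in muscle and of less known function. Pdk4, the kinase that shuts pyruvate out of oxidation during fasting, lies on chromosome 4 from 30546664 to 30556814. It read 385 and 1202 CPM untreated against 73.6 and 48.4 CPM, a log2 fold change of -3.70 ± 0.60 (edgeR adjusted p = 0.0323). Mybph, a myosin-binding protein, read 640 and 667 CPM against 48.5 and 53.9 CPM. Fbxo32, the ubiquitin ligase atrogin-1 of muscle wasting, read 276 and 633 CPM against 45.4 and 66.7 CPM, and Ucp3, a mitochondrial carrier of muscle, 232 and 344 CPM against 46.6 and 33.2 CPM. In all of these genes the groups did not overlap, as in every called gene. The untreated pair differed by more than the afatinib pair for Pdk4 and Fbxo32. Olig1, a transcription factor known from glial cells, was at 0 in both afatinib libraries and at least 18.8-fold lower. That bound uses the mean of the untreated libraries, which read 4.56 and 1.28 CPM. Fuom, a fucose mutarotase, and Pcgf1, a Polycomb subunit, had log2 fold changes of -5.76 ± 0.75 and -4.46 ± 0.79. Other named genes that fell were Cldn19 (-3.17), Kcnq1 (-2.83), Msln (-2.80), Ugt8 (-2.69), Gucy2g (-2.63) and Otud1 (-2.61), all as log2 fold changes. Of the genes named in these paragraphs on the largest changes, all passed without afatinib replicate 1 and none without either untreated library. Without afatinib replicate 2 those that passed were S100a9, Mmp13, Sprr1b, Il19, Mmp9, Wfdc18, Stfa3, Stfa2l1 and Krt86. With limma-voom they were S100a9, Mmp13, Sprr1b, Il19, Mmp9, Stfa3, Stfa2l1 and Mybph.

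Genes that injured or inflamed keratinocytes switch on were at similar levels in the 2 afatinib libraries. Of 31 genes on the list 23 were tested and 18 rose, none fell, and the median log2 fold change was 4.47 beside 0.09 for all genes. With genes at 0 set to their bound the median was 4.26. The counts were 22 without afatinib replicate 1, 12 without afatinib replicate 2, 12 without either gefitinib library, 9 with limma-voom and 0 without either untreated library. The list's median over the untreated mean was 4.08 in afatinib replicate 1 and 4.28 in replicate 2. S100a8 read 6.36 and 5.70 CPM untreated against 993 and 949 CPM. Per length, it moved from rank 3858 and 4333 among all loci in untreated skin to rank 36 and 16 in afatinib skin, at 2574 and 2384 FPKM. Keratin 16, made in wounds and psoriatic plaques, read 0.0692 and 0.116 CPM for Krt16 against 34.4 and 18.9 CPM. Krt17 read 43.2 and 92.9 CPM against 427 and 644 CPM, a log2 fold change of 2.98 ± 0.50.

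Other members of that list supply barrier proteins, inhibitors and lipid mediators. Sprr1a read 1.38 and 0.815 CPM against 19.6 and 22.4 CPM, and the connexin gene Gjb6 read 1.59 and 1.164 CPM against 14.7 and 19 CPM. Ptgs2, the inducible cyclooxygenase, read 0.830 and 0.349 CPM against 13.9 and 20.3 CPM, a log2 fold change of 4.87 ± 0.52. Il36g, an epidermal cytokine that recruits neutrophils, had a log2 fold change of 4.97 ± 0.51 and its antagonist Il36rn one of 2.49 ± 0.47. Each of these 5 genes had both afatinib libraries at least 3 times above its higher untreated library. Serpinb3a, Slpi, Defb1, Defb3, Stfa2, Serpinb2 and Gjb2 rose as well. Serpinb12 (2.41, edgeR adjusted p = 0.0556), Lcn2 (1.65, 0.156) and Tgm3 (1.70, 0.144), given with their log2 fold changes, did not pass, nor did Defb4 and Serpinb3, which were at 0 in untreated skin.

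Neutrophil genes were barely counted in untreated skin and were counted in both afatinib libraries. Of 13 listed genes 9 were tested and 6 rose, with a median log2 fold change of 4.51. The counts were 9 without afatinib replicate 1, 4 without afatinib replicate 2, 4 without either gefitinib library, 3 with limma-voom and 0 without either untreated library. Csf3r, the receptor for the granulocyte growth factor G-CSF, read 0.484 and 0.698 CPM against 7.93 and 17.1 CPM, a log2 fold change of 4.38 ± 0.56. Hcar2 read 1.04 and 1.45 CPM against 7.41 and 21.2 CPM. Mmp8, the neutrophil collagenase, read 0.138 and 0 CPM against 2.01 and 2.97 CPM. The chemokine receptor gene Cxcr2 read 0.138 and 0 CPM against 0.780 and 2.39 CPM and did not pass (edgeR adjusted p = 0.0761). The granule genes Elane, Ltf, Ngp and Cd177 had at most 5 counts in any of the 4 libraries and were not tested. S100a8, S100a9, Mmp9 and Hcar2 are also made by keratinocytes, and in bulk skin more cells of a type and more RNA per cell cannot be told apart.

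Of 48 chemokine and cytokine genes 42 were tested, 10 rose and none fell, with a median log2 fold change of 2.05. The counts were 18 without afatinib replicate 1, where 1 gene also fell, 5 without afatinib replicate 2, 2 without either gefitinib library, 1 with limma-voom and 0 without either untreated library. Il1b, the inflammasome cytokine, read 0.899 and 0.640 CPM against 24.0 and 53.2 CPM, a log2 fold change of 5.65 ± 0.63 (edgeR adjusted p = 0.0153), and its receptor antagonist Il1rn read 2.63 and 4.31 CPM against 19.1 and 47.8 CPM. Csf3, the gene of G-CSF, read 0.277 and 0.0582 CPM against 3.90 and 4.01 CPM. The T cell chemokine genes Ccl17 and Ccl19 read 3.31 and 8.17 CPM and 1.49 and 1.70 CPM in afatinib skin, against at most 0.233 CPM in untreated skin. Il24, Cxcl1 and Osm completed the set that rose, beside Il19 and Cxcl2 above. Of the 32 that did not pass, Cxcl9 had a log2 fold change of -0.01, Cxcl10 of 1.02, Ccl5 of 0.62 and Il33 of -0.49. These are members with large p, at ranks 42, 32, 40 and 36 of the 42. Il1a, Ccl4, Il6 and Ccl3, at ranks 11, 13, 15 and 16, did not pass either. In edgeR 24 of the 42 had an unadjusted p under 0.05.

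Proteases that break down dermal matrix rose in a narrow set. Of 20 tested genes for matrix proteases and their inhibitors 5 rose and none fell, with a median log2 fold change of 0.40. The counts were 8 without afatinib replicate 1, where 1 gene also fell, 3 without afatinib replicate 2, 4 without either gefitinib library, 3 with limma-voom and 0 without either untreated library. Besides Mmp13, Mmp9 and Mmp8, the macrophage elastase gene Mmp12 read 0.207 and 0.116 CPM against 18.9 and 21.3 CPM. The stromelysin gene Mmp3 read 2.07 and 1.57 CPM against 24.6 and 75.6 CPM. The inhibitor genes Timp1, Timp2 and Timp3 had log2 fold changes of 1.22, -0.49 and -0.10, with edgeR adjusted p from 0.192 to 0.864. The gelatinase gene Mmp2 read 233 and 255 CPM against 212 and 117 CPM and did not pass.

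The lists of interferon-stimulated, macrophage, T and NK cell and mast cell genes held 1 or 2 called rises each, beside 3.6% of all genes tested. A single call in a list of 13 or 26 genes does not set that list apart from all genes. Of 26 tested interferon-stimulated genes 1 rose and none fell, with a median log2 fold change of 0.07, whose sign turned to -0.08 without afatinib replicate 1. Ifit1 was that gene, at 0 and 0.0582 CPM untreated against 8.64 and 6.40 CPM. Of 13 macrophage genes, with a median of 0.19 that was -0.51 without afatinib replicate 1, only Arg1, the arginase of wound macrophages and of some keratinocytes, passed, at 1.24 and 1.57 CPM against 7.60 and 12.3 CPM. Cd68, Csf1r and C1qa did not pass, with log2 fold changes of 0.19, -0.13 and -0.15. Among 13 T and NK cell genes, with a median log2 fold change of 1.09, Zap70 rose, to 1.69 and 1.97 CPM from at most 0.138 CPM. Lck (1.88, edgeR adjusted p = 0.0674) and Cd8a (2.73, 0.0733) did not pass, and Cd3e read at most 1.52 CPM in any of the 4 libraries. The median of 9 mast cell genes was 0.66. Of these Hdc, the histamine-forming enzyme, read 0.899 and 4.01 CPM against 25.3 and 25.7 CPM and rose, as did Kit, whereas the granule protease genes Cma1, Tpsb2 and Cpa3 did not pass. Without either untreated library none of these rises passed. Ifit1 alone passed without afatinib replicate 2, without either gefitinib library and with limma-voom.

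Class II antigen presentation genes showed 0 calls among 11 tested in edgeR, DESeq2 and limma-voom, with 0 at an unadjusted p under 0.05 in edgeR, and their median log2 fold change was -0.48. With library size as the only scaling that median was 0.05, in a setting where the median of all genes lay at 0.71. Cd74, the invariant chain, read 406 and 212 CPM against 256 and 165 CPM. The JAK-STAT list held 0 calls among 20 genes in edgeR and limma-voom, 3 in DESeq2 and 5 at an unadjusted p under 0.05 in edgeR. Its median was -0.05 and took the other sign under library size scaling, and without afatinib replicate 1 or untreated replicate 1. Stat3, the transcription factor of interleukin 6 signalling, read 128 and 179 CPM against 139 and 136 CPM. Socs3, its feedback inhibitor, read 11 and 13.6 CPM against 23.7 and 34.5 CPM, a log2 fold change of 1.24 ± 0.46 that did not pass (edgeR adjusted p = 0.171).

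The drug's own pathway showed rises among EGFR-family ligands and no call among the receptors. Of 19 tested genes of the family, its ligands and its inhibitors 3 rose and none fell, with a median log2 fold change of 1.26. The counts were 9 without afatinib replicate 1, where 1 gene also fell, 1 without either gefitinib library, and 0 without afatinib replicate 2, without either untreated library or with limma-voom. Areg, amphiregulin, read 0.138 and 0.291 CPM against 5.07 and 7.71 CPM, a log2 fold change of 4.83 ± 0.73 (edgeR adjusted p = 0.0312). Nrg1, neuregulin 1, which binds ERBB3 and ERBB4, read 0.346 and 0.0582 CPM against 4.87 and 11.8 CPM, a log2 fold change of 5.39 ± 0.79. Epgn, epigen, read 1.94 and 2.33 CPM against 14.8 and 10.4 CPM. In all 3 ligand genes the lower afatinib library was at least 4 times the higher untreated one.

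The remaining ligands did not pass. Tgfa, transforming growth factor alpha, read 3.32 and 2.73 CPM against 7.80 and 14.5 CPM (log2 1.89 ± 0.43, edgeR adjusted p = 0.0569). Hbegf read 14.1 and 67.4 CPM against 18.6 and 14 CPM, so 1 untreated library lay above all others. Ereg had a log2 fold change of 1.84, Nrg2 of 2.44, Nrg4 of 0.83, Btc of 0.48 and Egf of -0.66, with edgeR adjusted p from 0.108 to 0.698.

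Receptor levels differed mainly between the 2 afatinib libraries. Egfr read 12.6 and 10.5 CPM untreated, 9.23 CPM in afatinib replicate 1 and 53.6 CPM in replicate 2, so the groups overlapped (log2 1.45 ± 0.70, edgeR adjusted p = 0.28). Erbb2 read 3.73 and 6.17 CPM against 5.26 and 23.8 CPM and overlapped as well. Erbb3 read 17.6 and 10.9 CPM against 22.9 and 51.2 CPM and did not pass (log2 1.38 ± 0.42, edgeR adjusted p = 0.111). Erbb4 had 2 and 3 counts untreated and 0 and 2 with afatinib, too few to test. Errfi1, a protein that binds and blocks EGFR, read 116 and 123 CPM against 71.8 and 56.5 CPM, a log2 fold change of -0.90 ± 0.25 (edgeR adjusted p = 0.0935).

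ERK feedback and target genes held 1 called rise among 17, beside 3.6% of all genes tested, with a median log2 fold change of 0.80. A single call in a list of this size does not set it apart from all genes. Ccnd1, cyclin D1, read 26.1 and 39.0 CPM against 92.2 and 152 CPM and rose (log2 1.91 ± 0.38, edgeR adjusted p = 0.0431). The call was lost with limma-voom and without any 1 library other than afatinib replicate 1. The ERK phosphatase gene Dusp6 read 16 and 19.1 CPM against 31.5 and 26.6 CPM. The feedback inhibitor gene Spry1 read 68.1 and 57.8 CPM against 43.9 and 36.4 CPM, and neither of the pair passed. Immediate early genes, which respond to ERK within minutes, held 1 call among 19. Btg2 read 124 and 149 CPM against 56.6 and 38.4 CPM and fell (log2 -1.53 ± 0.28, edgeR adjusted p = 0.0369). The call was lost with library size scaling, with limma-voom and without any 1 library other than afatinib replicate 1. Fos (-1.51, 0.0524), Atf3 (-2.52, 0.0512) and Nr4a1 (-2.02, 0.0747) lay below both untreated libraries in both afatinib libraries without passing, while Egr3 (2.68, 0.0692) lay above. The values in brackets are log2 fold changes and edgeR adjusted p.

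In the epidermis, called rises lay in both the basal and the late layers. Of 11 basal keratinocyte genes 2 rose, among them Lamb3, a gene of the basement membrane zone, at 18.7 and 11.1 CPM against 44.8 and 94.1 CPM (log2 2.22 ± 0.43, edgeR adjusted p = 0.0412). Krt5 and Krt14, the keratin pair of the basal layer, read 410 and 251 CPM against 1148 and 1765 CPM and 357 and 149 CPM against 760 and 1303 CPM. They had log2 fold changes of 2.14 ± 0.47 (edgeR adjusted p = 0.0535) and 2.03 ± 0.53 (0.0799). Leaving out afatinib replicate 1 gave 7 calls in this list, and leaving out any 1 of the other libraries gave 0, as did limma-voom.

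Of 23 tested suprabasal and barrier genes 9 rose and none fell, with a median log2 fold change of 2.31. The counts were 16 without afatinib replicate 1, where 1 gene also fell, 5 without afatinib replicate 2, 3 without either gefitinib library, 2 with limma-voom and 0 without either untreated library. Tgm1, the transglutaminase that seals the cornified envelope, read 1.45 and 2.15 CPM against 27.0 and 35.8 CPM, a log2 fold change of 4.11 ± 0.34 (edgeR adjusted p = 0.00519). Cnfn, cornifelin, read 0.207 and 0.0582 CPM against 10.6 and 11.5 CPM. Grhl3, a transcription factor of barrier formation, read 1.59 and 1.63 CPM against 14.6 and 25.7 CPM. Klk7 and Klk8, proteases of skin shedding, had log2 fold changes of 3.20 ± 0.42 and 3.44 ± 0.45. In each of these 5 genes the afatinib libraries were within 2 times of each other. The main keratins of the suprabasal layers did not move with them: Krt1 read 130 and 57.3 CPM against 94.8 and 104 CPM, and Krt10 read 135 and 76.5 CPM against 78.3 and 152 CPM. Their log2 fold changes were 0.09 ± 0.39 and 0.12 ± 0.42. Of the 23 genes, both afatinib libraries lay above both untreated ones in 17 and below them in 2, beside 31.5% and 21.8% of all genes. Neither of the 2 passed, and the lowest fitted log2 fold change in the list was -7.73.

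Cell contact genes rose in part. Of 25 tested genes of tight junctions, gap junctions and desmosomes 7 rose and none fell, with a median log2 fold change of 2.31. The counts were 21 without afatinib replicate 1, 2 without afatinib replicate 2, 1 without either gefitinib library, 1 with limma-voom and 0 without either untreated library. Gjb2, connexin 26, which is low in resting epidermis, read 8.23 and 33.2 CPM against 215 and 301 CPM, a log2 fold change of 3.64 ± 0.66. Cldn4 read 3.67 and 6.46 CPM against 22.9 and 39.6 CPM. Gja1, connexin 43, read 97.0 and 131 CPM against 387 and 826 CPM. Dsg3, the desmosomal cadherin of lower layers, read 17.4 and 12.3 CPM against 44.8 and 104 CPM. Dsp, desmoplakin, read 137 and 98.3 CPM against 230 and 721 CPM and did not pass (edgeR adjusted p = 0.0912). Tjp1, a scaffold of tight junctions, had a log2 fold change of -0.04.

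The growing hair follicle was followed with 4 lists. Of 13 hair shaft keratins 6 rose, of 20 tested keratin-associated proteins 14, of 13 inner root sheath and companion layer genes 6, and of 25 hair matrix regulators 3; none fell in any of the 4 lists. Their median log2 fold changes were 5.56, 5.67, 3.45 and 2.19. Without afatinib replicate 1 the counts were 13, 18, 13 and 19, without afatinib replicate 2 they were 4, 4, 0 and 1, and without either untreated or either gefitinib library, or with limma-voom, all were 0. Krt31, a keratin of the hair cortex, read 1.80 and 1.80 CPM untreated, 44.7 CPM in afatinib replicate 1 and 293 CPM in replicate 2. Its log2 fold change was 6.54 ± 1.01 (edgeR adjusted p = 0.032). Krt35, a keratin of the early cortex, read 11.8 and 39.2 CPM against 166 and 680 CPM. Krt85 read 2.90 and 19 CPM against 45.8 and 561 CPM and did not pass. Krt86 read 0 and 0.0582 CPM against 3.57 and 49.0 CPM. In each of the 13 shaft keratins afatinib replicate 2 was higher than replicate 1, and only 1 of the 13 lay within 1 log2 unit between them.

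The sheath and the regulators followed the same order of libraries. Tchh, trichohyalin of the inner root sheath, read 3.46 and 12.2 CPM against 105 and 449 CPM, a log2 fold change of 5.14 ± 0.99. Krt25 read 24.9 and 82.9 CPM against 356 and 871 CPM and rose. Krt71 read 24.3 and 101 CPM against 427 and 1145 CPM and did not pass (edgeR adjusted p = 0.0536). Lef1, the Wnt effector of the hair matrix, read 3.25 and 10.5 CPM against 33.8 and 101 CPM, and Ovol1 read 10.5 and 12.6 CPM against 46.5 and 97.9 CPM. Shh, the matrix signal of the growing follicle, read 1.31 and 4.65 CPM against 10.5 and 17.6 CPM without passing (edgeR adjusted p = 0.0758). Among keratin-associated genes, Krtap8-1 read 0.415 and 0.0582 CPM against 8.84 and 52.3 CPM. These genes lie in clusters of similar copies, so reads may be shared among them. Untreated replicate 2 was above untreated replicate 1 for Krt35, Krt25, Krt71, Tchh and Lef1, a spread that enters each test.

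**Figure D4:**
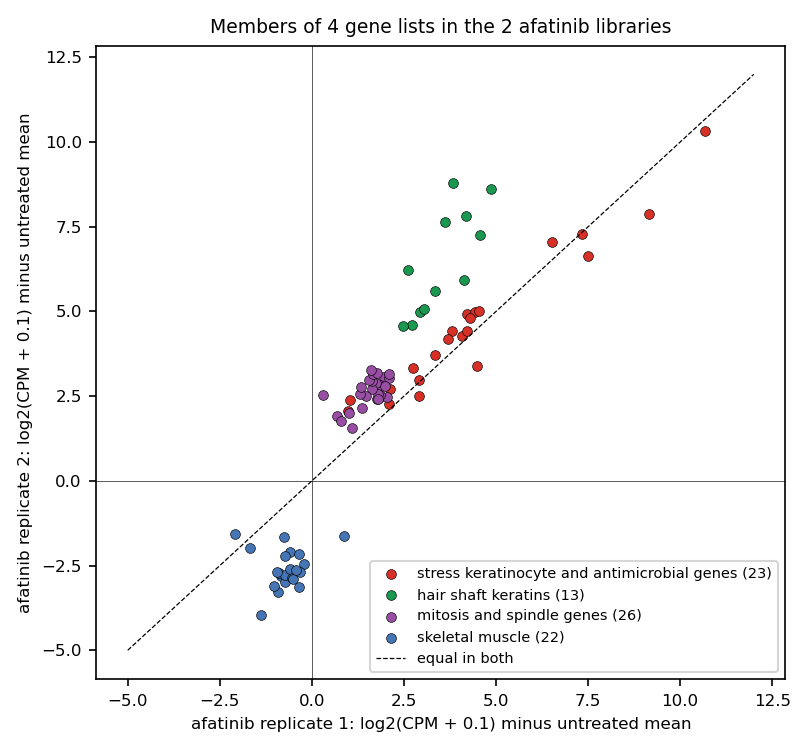
Difference of log2(CPM + 0.1) from the untreated mean in afatinib replicate 1 (x axis) and replicate 2 (y axis), 1 point per gene of 4 lists, with a dashed line of equality. Stress keratinocyte genes lie along the line, with 19 of 23 within 1 log2 unit of it, whereas all 13 hair shaft keratins and all 26 mitosis genes lie above it and 21 of 22 skeletal muscle genes below it.

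Of 26 tested mitosis and spindle genes 19 rose and none fell, with a median log2 fold change of 2.27. The counts were 26 without afatinib replicate 1 and 4 without afatinib replicate 2. They were 0 without either untreated library, without either gefitinib library, with limma-voom and with only the 2 groups compared. The list's median over the untreated mean was 1.64 in afatinib replicate 1 and 2.63 in replicate 2. Cdk1, the kinase that drives entry into mitosis, read 6.98 and 9.48 CPM against 33.8 and 45.9 CPM, a log2 fold change of 2.27 ± 0.28 (edgeR adjusted p = 0.0241). Birc5, survivin, read 4.01 and 4.36 CPM against 14.5 and 22.9 CPM. Ndc80, of the kinetochore, read 3.60 and 4.54 CPM against 14.9 and 24.1 CPM. Mki67, the proliferation marker Ki-67, read 23.2 and 25.2 CPM against 86.9 and 172 CPM, and Top2a, topoisomerase II alpha, 13.6 and 22.2 CPM against 74.5 and 144 CPM. In all 5 both afatinib libraries were above both untreated ones, as in every called rise. Of 25 DNA replication genes 7 rose and none fell, with a median of 1.49. Leaving out afatinib replicate 1 gave 23, and leaving out any 1 of the other libraries gave 0, as did limma-voom and a fit of only the 2 groups. Mcm3, a subunit of the replicative helicase, read 4.49 and 8.2 CPM against 22.8 and 46.5 CPM. Tk1, thymidine kinase, read 12.9 and 13.3 CPM against 35.2 and 49.9 CPM.

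Genes of mitosis are known to share promoter elements, the CCAAT box bound by NF-Y and the CHR element bound by the DREAM and MMB complexes. Promoter sequences were therefore read for the 3 mitosis genes with the smallest p, from RefSeq on build GRCr8, from 250 bases before the start of transcription to 50 bases in. Capitals mark CCAAT and the CHR spellings TTTGAA and TTCGAA on either strand (ATTGG and TTCAAA on the reverse).
Cdk1, chr20:19265043-19265342, plus strand: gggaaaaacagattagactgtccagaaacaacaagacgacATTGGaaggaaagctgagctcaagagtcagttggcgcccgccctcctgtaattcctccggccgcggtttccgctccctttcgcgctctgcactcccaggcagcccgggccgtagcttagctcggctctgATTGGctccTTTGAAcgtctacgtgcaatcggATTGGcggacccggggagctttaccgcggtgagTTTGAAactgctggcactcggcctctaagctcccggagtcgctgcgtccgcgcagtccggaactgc
Birc5, chr10:103571896-103572195, plus strand: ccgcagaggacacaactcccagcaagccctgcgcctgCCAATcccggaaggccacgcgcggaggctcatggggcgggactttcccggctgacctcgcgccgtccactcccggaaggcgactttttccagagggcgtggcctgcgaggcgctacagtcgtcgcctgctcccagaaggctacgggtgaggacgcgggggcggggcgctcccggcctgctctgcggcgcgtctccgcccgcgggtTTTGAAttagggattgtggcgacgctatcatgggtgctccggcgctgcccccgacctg
Ndc80, chr9:118887480-118887779, minus strand: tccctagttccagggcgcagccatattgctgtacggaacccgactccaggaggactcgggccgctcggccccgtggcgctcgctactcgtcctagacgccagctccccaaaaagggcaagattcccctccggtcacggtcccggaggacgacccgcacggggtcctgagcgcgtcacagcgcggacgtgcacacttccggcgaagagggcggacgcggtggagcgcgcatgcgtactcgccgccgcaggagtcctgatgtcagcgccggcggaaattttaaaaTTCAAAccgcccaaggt
Of the 26 mitosis genes tested 20 matched a promoter in the table. CCAAT was in 15 of the 20 (75%), beside 37.5% of all 33469 promoters of this length. TTTGAA was in 14 (70%), beside 18.3%, and TTCGAA in 2 (10%), beside 1.69%. Cdk1 held CCAAT on the reverse strand 3 times and TTTGAA 2 times, with first bases at -72 and -16 relative to the start. Birc5 held each once, and Ndc80 held TTTGAA on the reverse strand within the transcribed part. These are matches of letters and were not tested for binding.

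Of 25 cholesterol synthesis genes 5 rose and none fell, with a median log2 fold change of 0.97. The counts were 13 without afatinib replicate 1, 2 without afatinib replicate 2, and 0 without any of the other libraries or with limma-voom. Sqle, squalene epoxidase, read 7.40 and 9.60 CPM against 34.0 and 50.6 CPM, a log2 fold change of 2.31 ± 0.30 (edgeR adjusted p = 0.0257). Hmgcs1 read 50.2 and 58.3 CPM against 140 and 212 CPM. Among 28 sebaceous and fatty acid genes Fabp5, the epidermal fatty acid-binding protein, rose and Plin5, a lipid droplet protein of muscle and heart, fell. Of all genes tested 3.6% rose and 0.372% fell. Fabp5 read 41.4 and 121 CPM against 750 and 1006 CPM and per length reached 1014 and 1317 FPKM, rank 108 and 47 among all loci. Plin5 read 18 and 23.5 CPM against 4.29 and 3.51 CPM. Both calls were lost with limma-voom and without any 1 library other than afatinib replicate 1. The Plin5 call was also lost under library size scaling.

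Of 17 ATF4 targets and serine synthesis genes 5 rose: Mthfd2, Slc7a11, Phgdh, Asns and Psat1. The counts were 8 without afatinib replicate 1, where 2 genes also fell, 1 without afatinib replicate 2, 1 without either gefitinib library, 0 with limma-voom and 0 without either untreated library. Mthfd2, a mitochondrial folate enzyme, read 2.35 and 2.44 CPM against 13.3 and 20.4 CPM. Slc7a11, the cystine importer, read 0.346 and 0.698 CPM against 6.11 and 15 CPM. Chac1, another ATF4 target, read 174 and 196 CPM against 43.8 and 19 CPM, the opposite direction, without passing (log2 -2.56 ± 0.59, edgeR adjusted p = 0.0588). The metallothioneins Mt1, Mt2A, Mt4 and Mt1m rose, 4 of 9 genes on the metal list. Mt4, the form of stratified epithelia, read 36.9 and 26.5 CPM against 278 and 712 CPM. Mt2A read 38.4 and 77.2 CPM against 340 and 817 CPM. Without afatinib replicate 1 the metal list held 6 calls, without afatinib replicate 2 and with limma-voom it held 1, and without any of the other libraries 0.

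**Figure D5:**
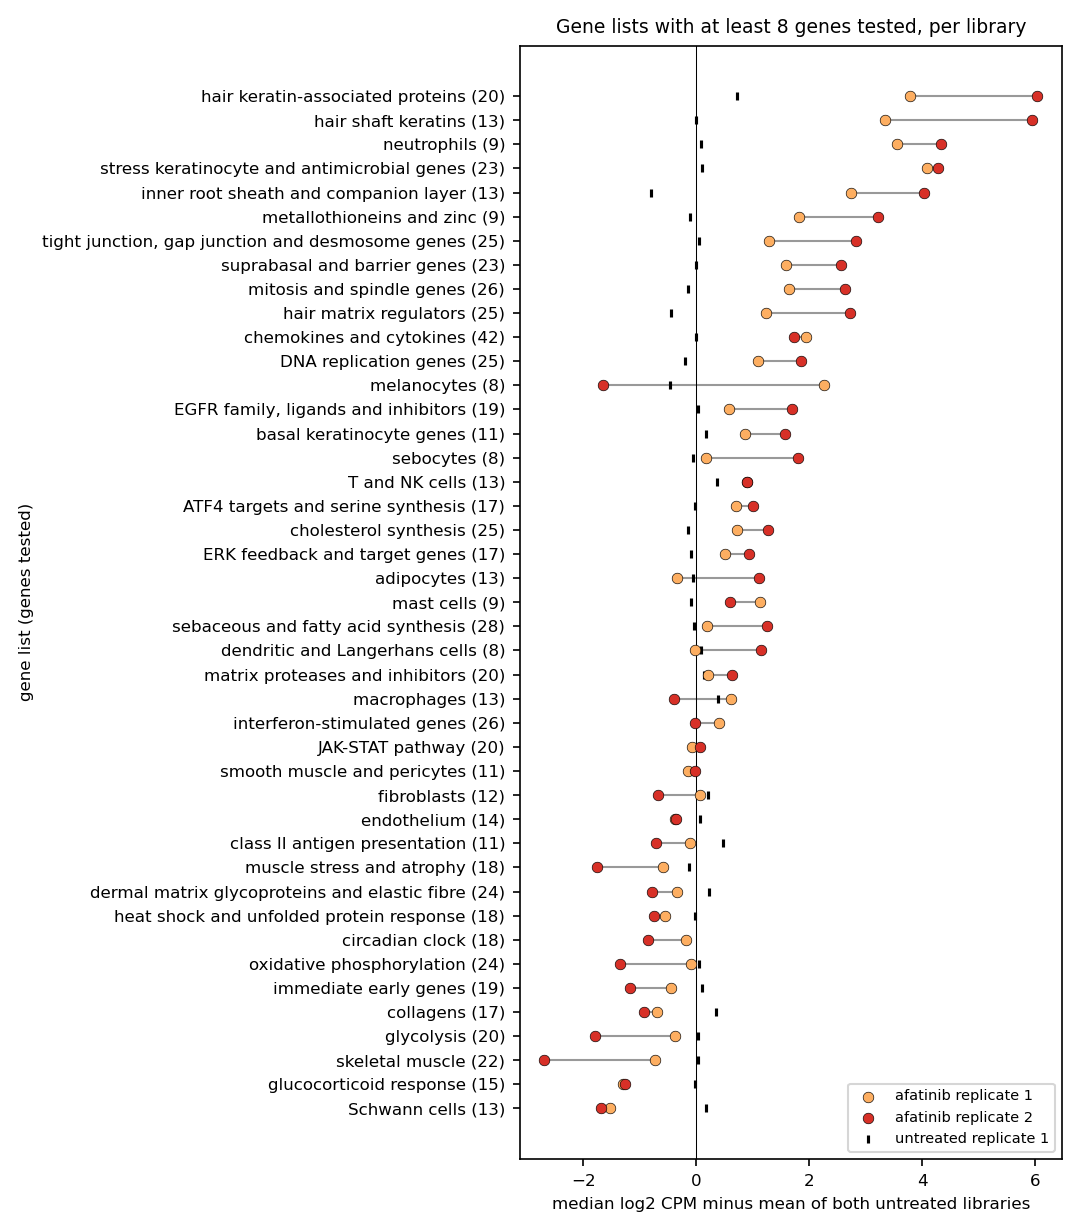
Median log2 CPM difference from the mean of both untreated libraries, for the 43 gene lists with at least 8 tested genes, in afatinib replicate 1 (orange), afatinib replicate 2 (red) and untreated replicate 1 (tick). Stress keratinocyte, chemokine and Schwann cell lists have both afatinib points close together, while hair, skeletal muscle, glycolysis and melanocyte lists have them far apart.

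Of 15 tested genes induced by glucocorticoids 3 fell and none rose, with a median log2 fold change of -1.39, and medians over the untreated mean of -1.31 and -1.27 in the 2 afatinib libraries. There were 9 falls and 1 rise without afatinib replicate 1, and 0 calls without any of the other libraries or with limma-voom. With library size as the only scaling 1 gene fell and the median was -0.68. Cebpd read 101 and 103 CPM against 41.1 and 26.6 CPM, a log2 fold change of -1.59 ± 0.28 (edgeR adjusted p = 0.0369). Per1, a clock gene also induced by glucocorticoids, read 97.3 and 96.3 CPM against 44.6 and 36.2 CPM, and Pdk4 is the third. Tsc22d3, the classic target GILZ, read 263 and 214 CPM against 93.3 and 53.9 CPM without passing (-1.70 ± 0.39, edgeR adjusted p = 0.0598). Fkbp5, another standard target, read 60.7 and 62.1 CPM against 14 and 32.9 CPM. Several of these genes, Pdk4 and Glul among them, are also made in skeletal muscle, whose genes were lower in the same libraries; its part in these differences was not tested. Of 18 clock genes Per1 alone was called. Dbp, an output of the clock, read 172 and 117 CPM against 250 and 36.8 CPM, 1 afatinib library above and 1 below. The labels give no time of day.

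Heat shock genes held 0 calls among 18 in edgeR and limma-voom, 7 falls in DESeq2 and 8 genes at an unadjusted p under 0.05 in edgeR. They had a median log2 fold change of -0.61, which was -0.05 under library size scaling. The small heat shock proteins abundant in muscle were furthest down: Hspb1 read 1191 and 1756 CPM against 473 and 192 CPM (edgeR adjusted p = 0.0694) and Cryab 1541 and 1561 CPM against 553 and 184 CPM (0.0914).

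Skeletal muscle genes lay below untreated skin on the median in both afatinib libraries, and further below in the second. Of 22 tested genes 1 fell and none rose, with a median log2 fold change of -1.33. The list's median over the untreated mean was -0.73 in afatinib replicate 1 and -2.69 in replicate 2. There were 12 falls without afatinib replicate 1, and 0 without any of the other libraries, with limma-voom or with library size scaling. Acta1, skeletal actin, read 78631 and 68684 CPM against 54761 and 11789 CPM (log2 -1.15 ± 1.20, edgeR adjusted p = 0.606). Per length it ranked first of all loci in the untreated libraries and in afatinib replicate 1, and 4 in afatinib replicate 2. Tnnt1, troponin T of slow fibres, was the gene that passed, at 422 and 397 CPM against 127 and 104 CPM. Myh7, the slow myosin heavy chain, read 367 and 1269 CPM against 160 and 229 CPM without passing. These 2 slow-fibre genes differed less between the afatinib libraries than Acta1 did.

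Among genes of muscle stress and wasting, Pdk4, Fbxo32 and Mstn fell and Mt1 rose, of 18 tested. Mstn, myostatin, which limits muscle growth, read 66.0 and 79.9 CPM against 31.1 and 22 CPM. Trim63, the ubiquitin ligase MuRF1, read 587 and 843 CPM against 205 and 95.3 CPM and did not pass (edgeR adjusted p = 0.142). The counts were 1 rise and 9 falls without afatinib replicate 1, and 0 without any of the other libraries or with limma-voom. Oxidative phosphorylation genes held 0 calls among 24 in edgeR, DESeq2 and limma-voom, and 0 at an unadjusted p under 0.05 in edgeR. Their median over the untreated mean was -0.10 in afatinib replicate 1 and -1.35 in replicate 2. Without afatinib replicate 1, 12 of the 24 fell. The glycolysis list was split, with 1 called rise among 20 genes beside 3.6% of all genes tested. Slc2a1, the glucose transporter GLUT1 of keratinocytes, read 24.3 and 19.7 CPM against 53.8 and 104 CPM and rose. The muscle genes Eno3 and Pgam2 read 9730 and 7581 CPM against 5756 and 1300 CPM and 4016 and 2554 CPM against 2914 and 548 CPM, neither passing. The Slc2a1 call was lost with limma-voom and without any 1 library other than afatinib replicate 1.

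Of 13 Schwann cell genes 3 fell and none rose, with a median log2 fold change of -1.68, and medians over the untreated mean of -1.52 and -1.69 in the 2 afatinib libraries. Mbp, myelin basic protein, read 135 and 92.5 CPM against 21.9 and 16.1 CPM, a log2 fold change of -2.59 ± 0.38 (edgeR adjusted p = 0.0308). Prx, periaxin, read 54.6 and 41.5 CPM against 15.3 and 14.7 CPM. In both genes the lower untreated library was more than 2 times the higher afatinib one. Pmp22 read 325 and 234.7 CPM against 96.2 and 52.1 CPM (edgeR adjusted p = 0.0748) and Mag 3.8 and 3.08 CPM against 0.195 and 0.848 CPM (0.0943). Sox10, the lineage factor of Schwann cells and melanocytes, read 8.71 and 6.81 CPM against 4.94 and 2.51 CPM. S100b, made by Schwann cells with and without myelin, read 29.3 and 23.3 CPM against 13.9 and 31.4 CPM. Leaving out afatinib replicate 1 gave 5 falls and 1 rise, and leaving out afatinib replicate 2 or either untreated library gave 0 calls, as did limma-voom. Without either gefitinib library 1 gene fell. The whole list held 0.101% and 0.0748% of counts in untreated skin and 0.0277% and 0.0311% in afatinib skin.

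Dermal genes were not called as a group. Of 17 collagens 0 passed in edgeR and limma-voom and 1 was lower by DESeq2, with 1 at an unadjusted p under 0.05 in edgeR. Their median log2 fold change was -0.78. Col3a1 read 10887 and 4880 CPM untreated against 3549 and 1087 CPM, and Col1a1 7898 and 3642 CPM against 3346 and 1239 CPM. The untreated libraries alone differed by more than 2 times for both, and their edgeR adjusted p were 0.355 and 0.462. Of 24 other dermal matrix genes 1 rose, beside 3.6% of all genes tested. Tnc, tenascin C, a matrix protein of wounds, read 9.47 and 14 CPM against 65.7 and 186 CPM (log2 3.42 ± 0.60, edgeR adjusted p = 0.036). Of 12 fibroblast genes Crabp1, known from the dermal papilla, was the only call, at 15.3 and 13.1 CPM against 57.9 and 69.4 CPM. Pdgfra, Dpt and Lum were not called. A single call sets neither of these lists apart from all genes. The Tnc call was lost with limma-voom and without any 1 library other than afatinib replicate 1. The Crabp1 call was lost with limma-voom and without either untreated library or gefitinib replicate 2. Of 14 endothelial and 11 smooth muscle genes 0 passed in edgeR and limma-voom, 1 and 2 did so in DESeq2, and 2 of each list had an unadjusted p under 0.05 in edgeR. The medians of both lists, -0.38 and -0.08, were positive under library size scaling, at 0.23 and 0.55.

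The 2 inhibitors were given at different doses, so their values are set side by side and no difference is put down to a compound. Both drug comparisons share the untreated libraries, so their calls are not independent; of the 591 genes that rose with afatinib 575 also rose with gefitinib, and of the 61 that fell 51 did. Gefitinib skin had 2906 called genes, 17.7% of those tested (12.3% higher and 5.45% lower). The direct test of afatinib against gefitinib gave 0 calls (0%) with edgeR, where 946 genes had an unadjusted p below the same threshold. Leaving out 1 library moved that number, to 3381 with 3 calls without afatinib replicate 2 and to 329 without gefitinib replicate 2, and library size scaling gave 392 with 1 call. The same contrast gave 30 calls with DESeq2 and 0 with limma-voom. The afatinib and gefitinib groups did not overlap for 17.1% of genes with afatinib higher and 19.9% with afatinib lower.

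Levels under both drugs are given for the inflammatory genes first. Mmp13 read 43.0 and 67.1 CPM with afatinib and 7.17 and 13.3 CPM with gefitinib, a log2 difference of 2.43 that did not pass (edgeR adjusted p = 0.711). Mmp9 read 35.1 and 51.4 CPM with afatinib and 6.94 and 12 CPM with gefitinib. In the same order Il1b read 24.0 and 53.2 CPM and 7.41 and 15.9 CPM, and Ptgs2 13.9 and 20.3 CPM and 4.74 and 4.95 CPM. Of 23 stress keratinocyte genes 11 lay higher in both afatinib libraries than in both gefitinib ones and 3 lower, and of 9 neutrophil genes 6 lay higher and 0 lower. For chemokines and cytokines the counts were 12 and 3 of 42, for interferon-stimulated genes 17 and 0 of 26, and for class II genes 6 and 0 of 11. The same held outside inflammation, with 10 of 14 endothelial genes higher and 0 lower. Of 26 mitosis genes 19 lay lower with afatinib and 0 higher, and of 25 hair matrix regulators 13 lay lower and 0 higher. In the other hair lists 4 of 13 shaft keratins, 7 of 20 keratin-associated proteins and 6 of 13 sheath genes lay lower and 0 higher. Of the afatinib libraries replicate 1 had the lower median over the untreated mean in the mitosis and hair matrix lists, 1.64 against 2.63 and 1.22 against 2.73, and no gene named here passed the direct test.

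The 5 genes per direction named against gefitinib, taken by unadjusted p since none passed, were G0s2, an inhibitor of fat breakdown, Hprt1, Cytl1, Mff and Mmp13 on the higher side, with log2 differences of 2.08, 5.14, 1.66, 3.38 and 2.43. The lower side held Krtap1-5, Pcgf1, Fuom, Krtap31-1 and Tm4sf4, with -2.96, -4.91, -4.60, -3.81 and -2.20. G0s2 read 4.08 and 4.07 CPM untreated, 31.2 and 28.5 CPM with afatinib and 7.25 and 6.83 CPM with gefitinib. Pcgf1 read 4.70 and 2.68 CPM untreated, 0.0650 and 0.231 CPM with afatinib and 3.02 and 7.09 CPM with gefitinib. In both genes the gefitinib libraries lay near untreated skin and the afatinib ones apart, yet the edgeR adjusted p of the direct test was 0.711 for each. The adjusted p of these 10 genes ran from 0.711 to 0.787.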

How the data were processed

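Back skin RNA of 6 libraries was sequenced, and the untreated, afatinib and gefitinib groups were taken from the treatment label. The submitters' processing notes name HISAT2 2.0.5, DESeq2 1.16.1 and featureCounts 1.5.0-p3. Genome build, annotation and counting strand are not stated there. One deposited table gives unscaled counts of reads for each gene. The authors' FPKM table divides each count by gene length and a library factor equal to the DESeq2 size factor times a constant; it served only to rank genes within a library.

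Of 34225 loci, 1342 have a gene ID but no symbol and held 1.68% to 2.54% of counts; they stayed in library sizes and tests. Genes passing filterByExpr (16398) were scaled with TMM. The quasi-likelihood fit of edgeR 4.0.16 (R 4.3.3) had a term for each of the groups over 6 libraries, leaving 3 residual degrees of freedom. P-values were two-sided, Benjamini-Hochberg adjusted over all tested genes, threshold 0.05. The SE came from the F statistic. Floors (3 counts) and intervals cover counting error only. The fit was also run on simulated counts with the same spread for every gene and library. These data do not have that property, so the simulation does not bear on the calls.

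The members and the 48 gene lists were chosen with earlier results of these data known; 754 of the 857 listed genes were tested, and no list was tested as a set. The text names, in each direction, the 15 largest folds among called genes with non-overlapping groups and at least 1 CPM, passing over predicted loci and taking at most 3 per family name. To these were added 5 per direction against gefitinib, up to 6 members per list by p, further members given as not passing, and all EGFR receptors and ligands. Other called members named in the text were chosen after their values were seen. Alternatives were other scalings (library size, without muscle genes), DESeq2 1.42.0, limma-voom (limma 3.58.1), no filter or at least 10 counts in 4 libraries, only the compared groups, a replicate block, and each library left out. Protein sequences were not used here. A few items are not reported here.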

Additional observations from a re-analysis of the deposited data

How the results depend on the processing

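Rises and falls numbered 591 and 61, and 0 genes differed between the inhibitors. With library size as the only scaling they numbered 1250 and 31, with 1 between the inhibitors, and rises made up 97.6% of calls against 90.6%. DESeq2 gave 1494, 498 and 30 (75% rises), no filter gave 1632, 451 and 28 (78.3% rises), limma-voom 32 and 2, and the compared groups alone 44 and 7. The stricter filter (685 and 68) and scaling without muscle genes (591 and 61) stayed within 1.5 times. Leaving out 1 library gave 0 to 2302 rises, 0 to 1351 falls and 0 to 3 differences between the inhibitors. The lowest values came without untreated replicate 2 (smallest adjusted p 0.0574) and the highest without afatinib replicate 1, where rises were 63% of calls; the difference of 3 came without afatinib replicate 2. The cause was not tested.

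The replicate block gave 337 rises and 32 falls, 335 of its calls among the 652. The replicate numbers were not shown to pair the samples: deviations of same-numbered libraries correlated at 0.0374, 0.0331 and -0.174 for the 3 pairs of groups.

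Library size scaling moved the median of all genes to 0.71. Over all alternatives 122 list medians moved by more than the spread between libraries and 550 did not. Of single genes, 1079 values fell short of the threshold they had passed, 712 newly passed it, and 1 was reversed: Myh3, an uncalled embryonic myosin at 0.01, ranged from -1.86 without afatinib replicate 1 to 0.74 without afatinib replicate 2. Precision is limited by 2 libraries per group.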

Other observations

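Pigment cell genes separated the libraries without regard to drug. Tyr, tyrosinase, read 1.24 and 3.20 CPM in untreated skin, 10.3 and 0 CPM in the afatinib libraries, and 0.196 and 30.1 CPM in the gefitinib libraries. Tyrp1 read 3.25 and 6.23 CPM, then 23.9 and 0.308 CPM, then 0.745 and 50.9 CPM in the same order. Pmel, a protein of the pigment granule, read 2.97 and 9.13 CPM, then 37.4 and 1.47 CPM, then 3.72 and 77.6 CPM. In all 3 genes 1 library of each drug group was above both untreated libraries and the other was below or within their range. Of the 8 melanocyte genes 0 passed against untreated skin in edgeR, DESeq2 or limma-voom, and 0 had an unadjusted p under 0.05 in edgeR. Mitf and Sox10, factors of this lineage, did not share the pattern.

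The afatinib libraries also differed in genes of fat cells and in a few loci with no common role. Adipoq, adiponectin, read 18 and 11.9 CPM untreated, 14.9 CPM in afatinib replicate 1 and 122 CPM in replicate 2. Plin1, perilipin of fat droplets, read 2.56 and 1.63 CPM, then 6.43 and 66.4 CPM, and Lep, leptin, 0.761 and 0.233 CPM, then 0.715 and 9.33 CPM. Of all genes tested 3.6% were called higher. Retn, resistin, was the 1 of 13 fat cell genes that passed, at 0.346 and 1.22 CPM against 13.3 and 46.8 CPM; it was lost with limma-voom and without any 1 library other than afatinib replicate 1. In the opposite direction, Tma7 read 3.04 and 22.9 CPM untreated, 64.2 CPM in afatinib replicate 1 and 1.77 CPM in replicate 2. Nhp2 read 0.761 and 0.233 CPM, then 21.9 and 0.501 CPM, and Hnrnpab 5.19 and 23.6 CPM, then 86.2 and 8.75 CPM.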
